A study of Rattus norvegicus with 65 samples.

Results

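The late tumors of transplant series 34 and 32, 2 lines of rat mammary carcinoma that lost the signals of epithelial genes during passage, were compared with the early tumors of the same lines. The 12 arrays come from a set of 65 that covers 11 lines. Primary tumors were induced with a carcinogen, which the labels do not name, and tumors were passed serially through syngeneic hosts of the same strain. Series 34 and 32 each have arrays of the primary tumor and 5 transplant generations, and 1 of the other lines has 4. The late group holds transplants 3, 4 and 5 of each line (6 arrays), and the early group holds the primary tumor and transplants 1 and 2 of each line (6 arrays). No drug or engineered allele is given for any group, and strain, sex and age are not given in the sources used here. Each line stems from 1 primary tumor, each array is 1 tumor of a chain of descent, and successive passages of a line are not independent animals drawn from a population.

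Both the lines and the step between transplants 2 and 3 were chosen by measured values: the levels of Epcam and Krt18, which mark epithelial cells, and of Vim, which marks mesenchymal cells. The late minus early difference therefore follows from the choice. It is described below gene by gene and list by list with no test, and a count of genes past a threshold in it supports nothing. Tests were kept for the difference between the lines in their late minus early change and for the same change in the other 9 lines (26 late and 27 early arrays). Values are scaled array intensities on the log2 scale, with a floor at 5.31 below which intensities carry no order, so a difference against values at the floor is a lower bound. Values of a line are listed in order of passage.

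Mammary epithelium consists of an inner luminal layer, which carries the simple keratins 8, 18 and 19 and can make milk, and an outer basal layer of contractile cells with keratins 5 and 14. Both layers are held together by E-cadherin, claudins, occludin and desmosomes. In an epithelial to mesenchymal transition these proteins are lost, vimentin, fibronectin and other products of connective tissue cells are gained, and transcription factors of the Snai, Zeb and Twist families repress epithelial genes by binding E-box sequences. Mammary tumors also hold fibroblasts, vessels and immune cells of the host. In RNA from whole tumors, fewer cells of a type and less RNA per cell cannot be told apart.

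Before scaling, the median intensity per array was lower in all 6 late arrays (96.1 to 157) than in the 6 early arrays (159 to 169). The array of transplant 5 of series 32 was dim, with a median of 96.1 against 143 to 176 on the other 64 arrays, and 14.5% of its probe sets lay at the floor. Results that lean on it are given with and without it. Krt18 and Krt19, keratins that define the labelled tissue, each lay at the floor in 4 of 6 late arrays and were read in all 6 early arrays. Ratios of 3′ to 5′ Gapdh probe sets, a sign of RNA integrity, ranged from 1.11 to 1.20 in the late arrays and from 1.03 to 1.20 in the early arrays. The array of transplant 5 of series 32 also held T cell transcripts and that of transplant 5 of series 34 held skeletal muscle transcripts, with values given below.

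Epcam, an adhesion protein of epithelial cells, stood at 6.52, 5.83 and 5.31 (series 34) and 9.17, 7.70 and 5.58 (series 32) in the late tumors, against 12.01, 11.74 and 11.62 (series 34) and 11.91, 11.62 and 11.56 (series 32) in the early tumors. The late and early arrays did not overlap, and the 2 lines took different courses. In series 34 the level was near the floor from transplant 3 on, whereas in series 32 it was lower at each later passage and came near the floor only at transplant 5. Krt18, a simple keratin of luminal cells, was at 5.31, 5.31 and 5.50 (series 34) and 7.32, 5.31 and 5.31 (series 32) in the late tumors, against 11.21, 10.96 and 10.78 (series 34) and 11.60, 10.91 and 10.71 (series 32) in the early tumors. Of the late arrays, 4 lay at the floor, and transplant 3 of series 32 kept the highest late level. Vim, the intermediate filament of mesenchymal cells, was at 12.70, 12.77 and 12.82 (series 34) and 12.79, 12.78 and 13.21 (series 32) in the late tumors, against 11.10, 11.33 and 10.94 (series 34) and 9.79, 11.64 and 11.48 (series 32) in the early tumors. All 6 late arrays lay above all 6 early arrays. The late minus early differences were -5.06 for Epcam, -5.35 for Krt18 and 1.80 for Vim, each over 6 late and 6 early arrays. Without the dim array they were -4.73, -5.23 and 1.72.

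**Figure D1:**
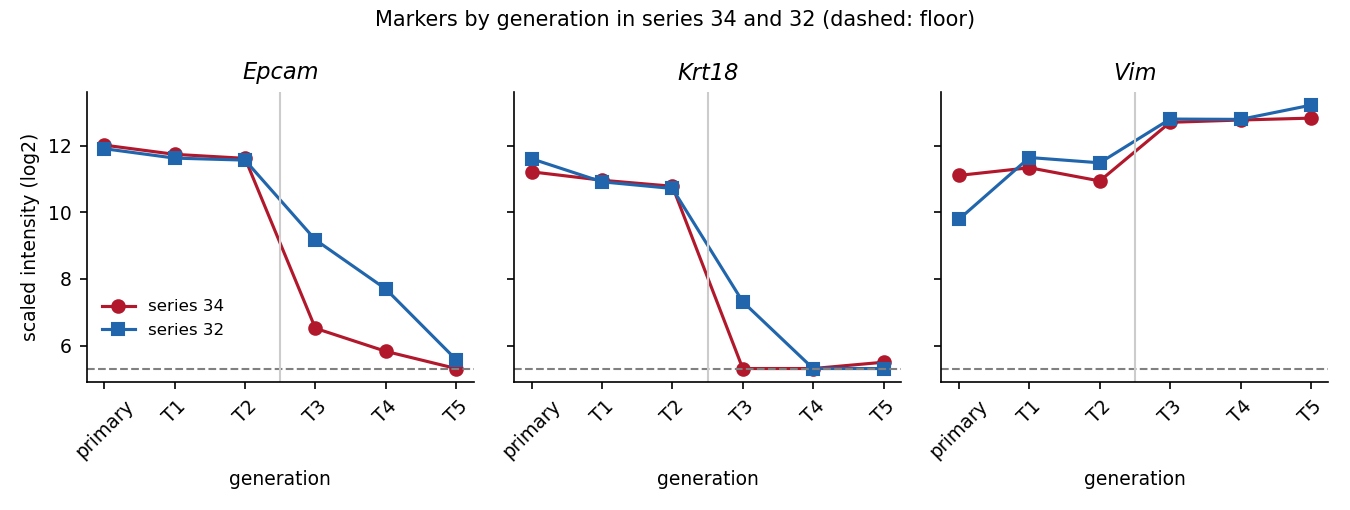
Scaled intensity (log2) of Epcam, Krt18 and Vim by generation in series 34 (circles) and series 32 (squares), 1 array per point. The dashed line is the floor, the vertical line separates early from late generations, and Epcam at transplant 3 was at 6.52 in series 34 and 9.17 in series 32.

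Across the 8499 genes tested, limma with series as a block placed 2567 genes (30.2%) past an adjusted p of 0.05, 1288 (15.2%) higher and 1279 (15%) lower in late tumors, and nothing is read from these counts because the contrast chose the lines. A stricter description counts genes whose 3 late arrays all lay above, or all below, the 3 early arrays in both lines. This held for 823 genes (9.68%) above and 822 genes (9.67%) below, and without the dim array for 1010 above and 1032 below. With all arrays, 248 of these genes were at least 2-fold higher and 345 at least 2-fold lower in late tumors. The median difference over all genes was 0.04. Without scaling the arrays to a common median it was -0.18, and 495 genes were then called higher and 1771 lower. The differences of the 2 lines correlated across genes at a Pearson r of 0.67 over 8499 genes, which are not independent replicates. Differences of at least 1 log2 unit in both lines had the same sign for 510 genes and opposite signs for 21.

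**Figure D2:**
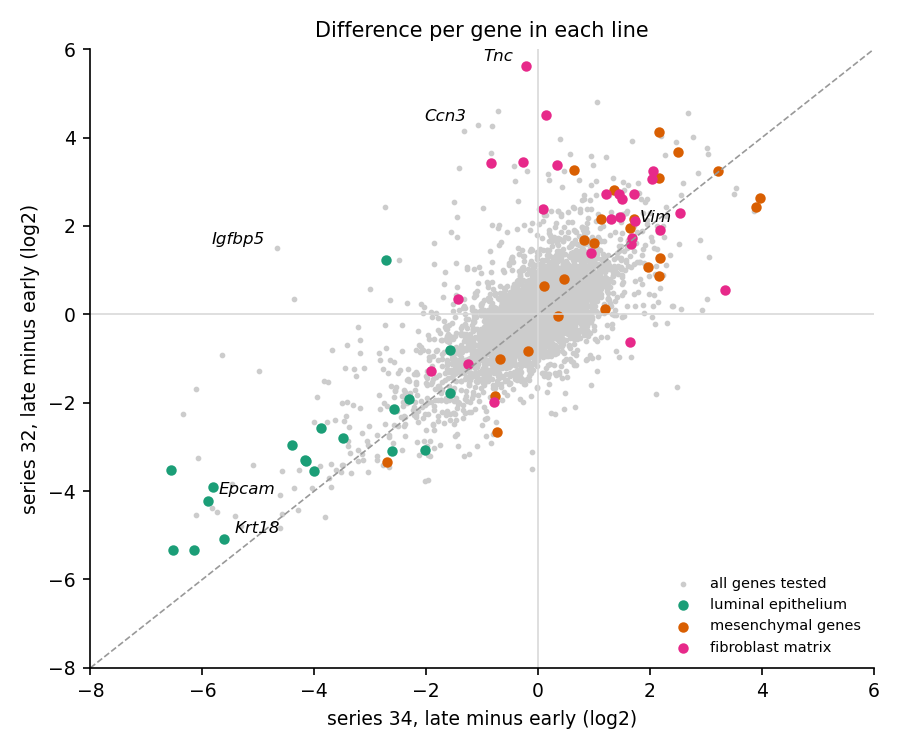
Late minus early difference (log2) of each tested gene in series 34 (horizontal) and series 32 (vertical), with luminal epithelium genes, mesenchymal genes and fibroblast matrix genes in colour and the line of equality dashed. Most luminal genes lie at the lower left, most mesenchymal genes at the upper right, and Tnc and Ccn3 lie high on the axis of series 32 with no positive shift of that size on the axis of series 34.

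The 12 genes with the largest lower level among those that did not overlap in either line were Krt19, Krt8, Krt18, Gp2, Krt5, Igfbp2, Epcam, Plet1, Lcn2, S100a14, Fxyd3 and Lgals7. Their late minus early differences ranged from -5.94 (Krt19) to -4.73 (Lgals7), just above Krt15 at -4.67, which was the next gene. Since each had at least 1 late array at the floor, late levels were at least 26.5- to 61.2-fold lower. Their mean level ran through 11.57, 11.46, 11.01, 5.62, 5.43 and 5.60 from the primary tumor to transplant 5 of series 34, and through 11.75, 11.49, 10.72, 7.86, 6.84 and 5.50 in series 32. Krt19, the smallest acidic keratin of luminal cells, was at 5.31, 5.31 and 5.31 (series 34) and 8.35, 7.65 and 5.31 (series 32) in the late tumors, against 12.28, 11.79 and 11.46 (series 34) and 12.86, 12.84 and 11.65 (series 32) in the early tumors. Late and early arrays were far apart in both lines, and the level was at the floor in all 3 late arrays of series 34 and in transplant 5 of series 32.

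Krt8, the partner of Krt18 in simple epithelial filaments, was at 5.42, 5.31 and 6.16 (series 34) and 8.21, 5.44 and 5.31 (series 32) in the late tumors, against 12.15, 11.77 and 11.43 (series 34) and 12.04, 11.86 and 11.05 (series 32) in the early tumors. Transplant 3 of series 32 kept an intermediate level. Lcn2, which encodes a secreted siderophore-binding protein of epithelia and neutrophils, was at 6.52, 5.31 and 6.82 (series 34) and 11.42, 9.45 and 5.31 (series 32) in the late tumors, against 12.66, 12.80 and 12.88 (series 34) and 11.99, 11.91 and 12.88 (series 32) in the early tumors. Transplant 3 of series 32 thus lay close to its early tumors for Lcn2, while the same generation of series 34 did not. Lgals7, the galectin of stratified epithelia, was at the floor in all 6 late tumors and at 10.38, 10.32 and 9.10 (series 34) and 10.49, 11.30 and 8.65 (series 32) in the early tumors, at least 26.5-fold lower. S100a14, an S100 calcium-binding protein of epithelia, was at the floor in 5 late arrays and at 6.76 in transplant 3 of series 32, against 11.07, 10.53 and 10.58 (series 34) and 10.92, 10.05 and 10.13 (series 32) in the early tumors. Fxyd3, a regulator of the sodium pump, was at 6.21, 5.31 and 5.31 (series 34) and 8.49, 7.73 and 6.51 (series 32) in the late tumors, against 11.42, 11.43 and 11.39 (series 34) and 11.61, 11.63 and 11.18 (series 32) in the early tumors. Gp2, a membrane glycoprotein of secretory granules, was at 5.31, 5.69 and 5.46 (series 34) and 7.15, 6.01 and 5.61 (series 32) in the late tumors, against 11.65, 11.77 and 11.40 (series 34) and 12.85, 9.44 and 10.08 (series 32) in the early tumors. The primary tumor of series 32 held the highest Gp2 level of the 12 arrays, and all late arrays were near the floor except transplant 3 of series 32.

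The luminal epithelium list had 19 of 22 members tested, of which 16 were below in both lines and none above, beside the 9.67% and 9.68% of all genes. The median difference was -3.68, against 0.04 over all genes tested, and -3.55 without the dim array. The lists used here were drawn up with earlier results of these data known, so their counts describe and do not test them. The 3 tested luminal genes outside the count were Cldn3, Erbb3 and Kit. Cldn3, a tight junction claudin, was already at the floor in transplant 2 of series 32. Prom1 and Muc1, proteins of the apical surface, differed by -1.67 and -2.35. Summed over the list, scaled intensity ranged from 1506 to 7338 in the late arrays, against 29642 to 42922 in the early arrays.

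Of 22 tested genes of the epithelial junction list (34 listed, 23 on the array), 13 were below in both lines and none above. The shares over all genes were 9.67% and 9.68%. The median difference of the list was -2.24, against 0.04 over all genes. Cdh1, which encodes E-cadherin, was at 5.31, 5.31 and 5.31 (series 34) and 7.85, 6.86 and 5.68 (series 32) in the late tumors, against 11.01, 10.76 and 10.58 (series 34) and 11.03, 10.45 and 10.41 (series 32) in the early tumors. It was at the floor in all 3 late tumors of series 34 and stepped down by passage in series 32. Prss8, the membrane protease prostasin, was at the floor in all 6 late tumors and at 8.85, 8.98 and 9.20 (series 34) and 8.82, 8.53 and 8.74 (series 32) in the early tumors, at least 11.6-fold lower. Its activator matriptase, St14, was at 6.27, 6.29 and 6.12 (series 34) and 7.36, 6.71 and 6.55 (series 32) in the late tumors, against 9.76, 9.82 and 9.49 (series 34) and 9.72, 9.15 and 9.01 (series 32) in the early tumors. Differences were -4.15 for the desmosome protein gene Perp, -3.78 and -3.74 for 2 claudins, -3.45 for desmoplakin (Dsp), -3.10 for junctional adhesion molecule A (F11r) and -2.22 for occludin (Ocln). Other members of the list, which many cell types use, differed less, and those given here were chosen after their values were seen: -0.50 for Ctnnb1, -0.45 for Ctnnd1, -0.18 for Ctnna1 and 0.24 for Tjp1. Jup, the catenin shared with desmosomes, lay between, at -1.84.

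The promoters of the junction and luminal genes were searched for the E-box CAGGTG, read on both strands (CACCTG), in the 250 bases before the gene start, with RefSeq sequence of build GRCr8. Of the junction genes on the array 15 of 23 had a promoter entry, and 9 of them (60%) held the motif. Of the luminal genes 14 of 19 had an entry and 9 (64.3%) held it, and 3 claudin genes stand in both lists. Of these claudin genes only Cldn3 and Cldn7 had an entry. Both held the motif and are counted in both shares. Of 13 genes named as markers or for the largest lower levels, 11 had an entry and 4 (36.4%) held the motif. That set shares genes with the luminal list and includes Vim, which was higher in late tumors and held no motif. The share was 15.9% over all 33469 promoters, 14.9% over the 7109 tested genes matched by symbol, 11.1% in the mesenchymal list (2 of 18) and 15.8% in the fibroblast matrix list (3 of 19). These shares were not tested, and a match of letters is not a binding site. The 4 promoters below are shown because they belong to genes described above and differ in the motif: Cldn7 holds the most copies of the genes searched, with the nearest 17 bases before the start, Epcam and Krt8 hold 1 each and Krt18 holds none. Capitals mark the motif and sequences run 5′ to 3′ on the gene's strand.
Cldn7 (chr10:55188420-55188669, + strand): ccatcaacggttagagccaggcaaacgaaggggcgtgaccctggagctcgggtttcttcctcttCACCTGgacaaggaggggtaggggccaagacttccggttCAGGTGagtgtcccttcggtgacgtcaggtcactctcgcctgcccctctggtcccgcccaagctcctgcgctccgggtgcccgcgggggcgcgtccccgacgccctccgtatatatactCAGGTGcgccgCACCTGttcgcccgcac
Epcam (chr6:12649679-12649928, - strand): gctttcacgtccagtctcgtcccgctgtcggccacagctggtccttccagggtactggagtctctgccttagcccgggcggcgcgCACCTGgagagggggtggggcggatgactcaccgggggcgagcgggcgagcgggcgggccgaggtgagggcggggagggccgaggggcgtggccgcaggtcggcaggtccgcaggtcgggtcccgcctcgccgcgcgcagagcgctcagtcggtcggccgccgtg
Krt8 (chr7:135010340-135010589, - strand): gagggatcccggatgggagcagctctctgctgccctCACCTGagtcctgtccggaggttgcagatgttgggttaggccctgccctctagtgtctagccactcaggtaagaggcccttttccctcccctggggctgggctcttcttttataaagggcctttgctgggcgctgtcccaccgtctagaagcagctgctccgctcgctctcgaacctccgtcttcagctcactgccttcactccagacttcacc
Krt18 (chr7:135035918-135036167, + strand): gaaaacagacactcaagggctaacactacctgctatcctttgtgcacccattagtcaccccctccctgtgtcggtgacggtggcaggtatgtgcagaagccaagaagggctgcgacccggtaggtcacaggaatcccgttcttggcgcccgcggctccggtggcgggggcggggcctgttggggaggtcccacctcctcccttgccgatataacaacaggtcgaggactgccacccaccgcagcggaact

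Most basal genes were lower in late tumors: by the sign of the difference 11 were lower and 2 higher. Of 13 tested members of the basal myoepithelium list (16 listed), 5 were below in both lines and 1 above, beside 9.67% and 9.68% of all genes. The median difference was -1.21. Krt5, a keratin of basal cells, was at 5.51, 5.80 and 6.07 (series 34) and 8.78, 7.67 and 5.31 (series 32) in the late tumors, against 11.81, 11.63 and 11.15 (series 34) and 11.77, 12.13 and 11.29 (series 32) in the early tumors. It followed the course of Epcam, with a stepwise decline in series 32. Krt15 and Krt14 differed by -4.67 and -3.14, and Itgb4, the hemidesmosome integrin, by -2.75. Jag1, a Notch ligand, differed by -2.21. Actg2, a smooth muscle actin, was above in both lines, by 0.54. Cdh3, which encodes P-cadherin, differed by 0.46, and its arrays overlapped in series 32 only. Mylk, the myosin light chain kinase, was at 8.66, 7.06 and 5.95 (series 34) and 7.87, 7.37 and 5.31 (series 32) in the late tumors, against 9.76, 9.99 and 10.03 (series 34) and 10.24, 10.53 and 9.81 (series 32) in the early tumors. Late arrays of Mylk lay below early arrays in both lines, and Mylk stands in the mesenchymal list, not in the basal one. Differences for Tagln (-1.69) and Acta2 (-1.30) came with overlap in series 34, where transplant 3 stood at 10.29 and 11.28. Tagln is likewise a member of the mesenchymal list only, and Acta2 of both lists.

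Regulators of mammary epithelium were measured for few genes (7 of 20 on the array, 6 tested). Gata3, the luminal transcription factor, was at 6.80, 6.70 and 6.78 (series 34) and 6.59, 6.34 and 6.38 (series 32) in the late tumors, against 9.27, 9.30 and 8.41 (series 34) and 8.43, 9.18 and 8.19 (series 32) in the early tumors. Klf5, a regulator of epithelial growth, was at 5.59, 6.30 and 7.16 (series 34) and 5.95, 5.31 and 5.31 (series 32) in the late tumors, against 8.11, 7.73 and 7.72 (series 34) and 8.15, 6.98 and 8.14 (series 32) in the early tumors. For both genes the late and early arrays were separate in each line, and Gata3 covered a narrower late range. Elf3, an epithelial ETS factor, overlapped between late and early arrays of both lines (-0.21), and Foxa1, a forkhead factor of luminal cells, overlapped in series 32 (0.06). Foxa1 has no settled direction, since without rescaling the highest difference of the list was -0.11.

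Hormone-responsive genes were lower unevenly. Of 13 tested hormone response genes (20 listed), 6 were below in both lines and none above, beside 9.67% and 9.68% of all genes. Igfbp2, an insulin-like growth factor binding protein, was at the floor in all 3 late tumors of series 34 and at 7.09, 6.82 and 5.73 in those of series 32, against 11.45, 11.47 and 10.49 (series 34) and 11.48, 11.81 and 9.53 (series 32) in the early tumors. Prlr, the prolactin receptor, was at 5.31, 5.31 and 5.31 (series 34) and 7.20, 6.57 and 5.86 (series 32) in the late tumors, against 10.77, 9.82 and 9.17 (series 34) and 11.04, 11.77 and 9.12 (series 32) in the early tumors. In both lines Prlr was already lower at transplant 2 than in the primary tumor. Areg, the ligand amphiregulin, was at 5.31, 6.22 and 7.16 (series 34) and 9.75, 9.38 and 7.08 (series 32) in the late tumors, against 10.46, 11.01 and 8.49 (series 34) and 10.89, 10.94 and 8.99 (series 32) in the early tumors. The Areg arrays overlapped in series 32 and were separate in series 34. Pgr, the progesterone receptor, did not pass the filter on low values, and its late levels were at or near the floor (5.31, 5.31 and 5.31 (series 34) and 5.36, 5.31 and 5.54 (series 32)), against 7.61, 7.20 and 7.05 (series 34) and 7.41, 8.66 and 6.94 (series 32) in the early tumors.

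Of 14 tested milk genes (18 listed), 2 were below in both lines and 1 above, beside 9.67% and 9.68% of all genes. In series 34 taken by itself, 7 of the 14 were below, beside 23.5% of all genes. In series 32, 3 were below, beside 1351 of all 8499 genes. The list mean overlapped there, at 8.84, 8.03 and 7.98 in the late tumors against 8.26, 8.36 and 9.11 in the early tumors. Csn3, the kappa casein gene, was at 7.70, 6.12 and 6.98 (series 34) and 12.28, 9.01 and 7.96 (series 32) in the late tumors, against 12.95, 13.14 and 13.06 (series 34) and 11.31, 9.82 and 13.16 (series 32) in the early tumors. In series 32 its highest early level came at transplant 2 and transplant 3 still stood at 12.28. Lalba, the alpha lactalbumin of lactose synthesis, was at 5.31, 5.31 and 6.12 (series 34) and 9.32, 8.57 and 5.88 (series 32) in the late tumors, against 10.62, 11.51 and 11.59 (series 34) and 7.91, 7.59 and 11.001 (series 32) in the early tumors, with its highest level in series 32 again at transplant 2. Olah, a thioesterase of milk fat synthesis, was at the floor in all late tumors of series 34 and at 7.58, 5.59 and 5.31 in those of series 32, against 7.86, 9.71 and 10.37 (series 34) and 8.10, 8.30 and 9.38 (series 32) in the early tumors. Glycam1, which milk and lymph node vessels both hold, was the gene above in both lines, at 6.49, 6.88 and 6.83 (series 34) and 9.85, 6.68 and 11.64 (series 32) in the late tumors, against 5.78, 5.70 and 5.79 (series 34) and 5.73, 6.38 and 5.92 (series 32) in the early tumors.

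**Figure D3:**
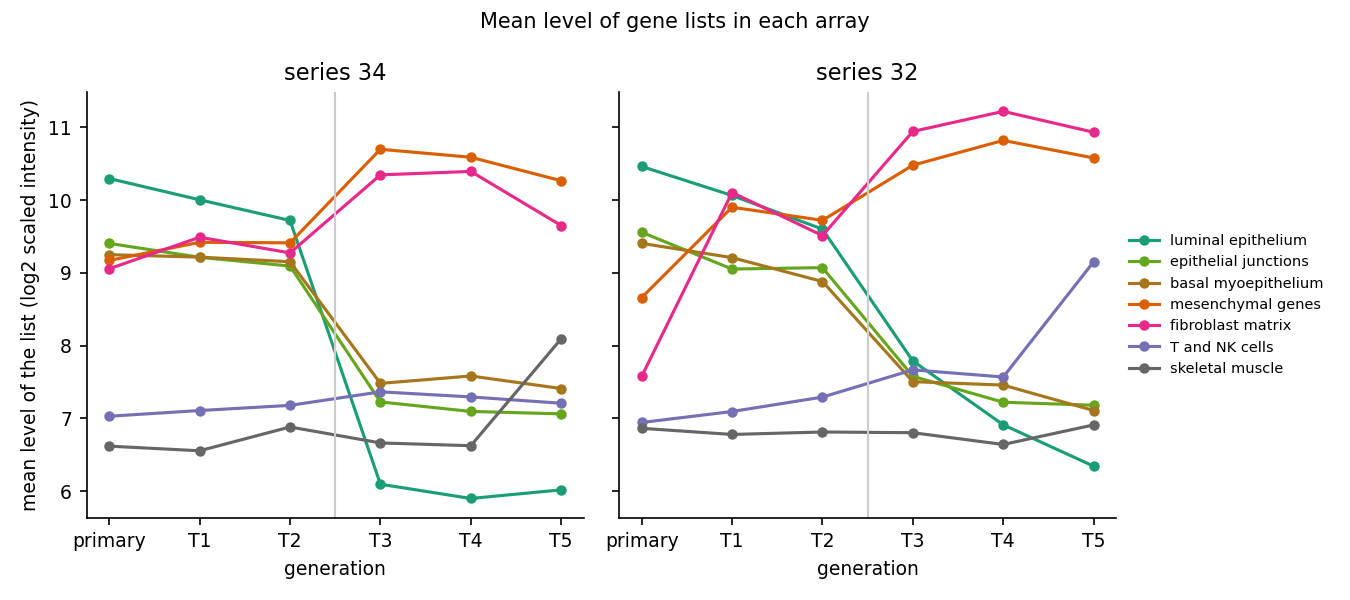
Mean level (log2 scaled intensity) of the tested members of 7 gene lists in each array of series 34 (left) and series 32 (right), by generation, with the vertical line between early and late generations. The luminal mean was 6.10 at transplant 3 in series 34, against 9.72 at transplant 2, and stood at 7.79, 6.91 and 6.34 over transplants 3 to 5 of series 32.

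The 12 genes with the largest higher level among those that did not overlap in either line were Sfrp4, Olfml3, Mmd, Clmp, Emp3, Lgals1, Fads3, Cd248, S100a4, Thy1, Angptl2 and Sapcd1, with differences of 3.11 (Sapcd1) to 3.61 (Sfrp4), or 8.66- to 12.2-fold. The next gene, PCOLCE2, was at 3.10. Emp3, a small membrane protein common in mesenchymal and blood cells, was at 11.52, 12.08 and 12.40 (series 34) and 11.04, 11.20 and 11.15 (series 32) in the late tumors, against 7.90, 8.19 and 8.005 (series 34) and 7.05, 9.15 and 9.30 (series 32) in the early tumors. Fads3, of the fatty acid desaturase family, was at 10.03, 9.97 and 10.29 (series 34) and 8.68, 9.21 and 9.22 (series 32) in the late tumors, against 6.65, 6.71 and 6.30 (series 34) and 5.32, 6.32 and 6.90 (series 32) in the early tumors. Both genes were higher in late series 34 than in late series 32. Sfrp4, a secreted Wnt antagonist, was at 8.43, 8.73 and 8.27 (series 34) and 10.03, 11.63 and 10.92 (series 32) in the late tumors, against 5.79, 6.18 and 5.43 (series 34) and 5.31, 6.36 and 7.25 (series 32) in the early tumors. Late and early arrays were separate, with the higher late levels in series 32. Cd248, endosialin of fibroblasts and pericytes, was at 9.44, 9.03 and 7.01 (series 34) and 10.09, 10.27 and 9.86 (series 32) in the late tumors, against 5.79, 6.65 and 5.63 (series 34) and 5.31, 7.62 and 5.59 (series 32) in the early tumors. Transplant 5 of series 34 had the lowest late level. Sapcd1 was at 8.57, 9.23 and 9.10 (series 34) and 8.86, 9.27 and 8.45 (series 32) in the late tumors, against 5.45, 5.56 and 5.36 (series 34) and 6.41, 6.06 and 5.97 (series 32) in the early tumors, the narrowest spread within groups of these 12 genes by the standard error of the difference (0.19).

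Of 25 tested mesenchymal genes (28 listed), 13 were above in both lines, beside 9.68% of all genes, and 2 were below, beside 9.67%. By the sign of the difference 20 were higher and 5 lower in late tumors. The lowest was Mylk, given with the basal genes, at -3.02 and below in both lines. The median difference was 1.52, and 1.71 without the dim array. S100a4, which binds calcium and is common in fibroblasts and migrating cells, was at 12.77, 12.88 and 13.01 (series 34) and 12.21, 12.23 and 12.25 (series 32) in the late tumors, against 8.35, 9.42 and 9.20 (series 34) and 6.88, 11.33 and 11.19 (series 32) in the early tumors. The primary tumor of series 32 stood lower than the other early arrays. Fn1, fibronectin, was at 12.59, 12.47 and 12.42 (series 34) and 13.14, 13.05 and 13.78 (series 32) in the late tumors, against 10.20, 10.15 and 10.67 (series 34) and 8.03, 11.28 and 11.41 (series 32) in the early tumors. Lgals1, galectin-1, was at 12.46, 12.96 and 13.18 (series 34) and 12.70, 12.77 and 13.01 (series 32) in the late tumors, against 9.31, 10.05 and 9.57 (series 34) and 7.26, 10.78 and 10.68 (series 32) in the early tumors. In both genes transplants 1 and 2 of series 32 were above the early tumors of series 34. Tgfbi, a matrix protein named for its response to TGF-beta, was at 10.61, 11.07 and 11.29 (series 34) and 11.63, 12.27 and 12.67 (series 32) in the late tumors, against 8.34, 8.41 and 8.72 (series 34) and 7.93, 9.20 and 8.42 (series 32) in the early tumors. Thy1, a surface glycoprotein of fibroblasts and, in the rat, of immature T cells, was at 10.44, 10.27 and 9.50 (series 34) and 12.14, 12.54 and 12.58 (series 32) in the late tumors, against 7.49, 8.15 and 8.09 (series 34) and 7.28, 9.37 and 8.20 (series 32) in the early tumors. Thy1 was already high in series 32 at transplants 3 and 4, where Cd3d, of the T cell receptor complex, was at 5.36 and 5.31. Cd44, the hyaluronan receptor, and Msn, which links actin to the membrane, were higher by 1.73 and 1.26.

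Other cadherins were read in late tumors to different extents. Cdh2, which encodes N-cadherin and did not pass the filter on low values, was at 8.39, 8.06 and 7.03 (series 34) and 8.28, 8.65 and 7.22 (series 32) in the late tumors, against 5.90, 5.31 and 5.33 (series 34) and 5.31, 5.31 and 5.80 (series 32) in the early tumors. Most of its early levels were at or close to the floor. Cdh11, a cadherin of fibroblasts and bone, was at 7.51, 7.70 and 5.99 (series 34) and 9.77, 9.95 and 9.86 (series 32) in the late tumors, against 6.17, 6.14 and 6.95 (series 34) and 5.31, 7.13 and 7.33 (series 32) in the early tumors. Cdh11 was high in late series 32 and overlapped with early arrays in series 34. Among the transcription factors (7 tested of 12 listed), 2 were above in both lines and none below, beside 9.68% and 9.67% of all genes. By the sign of the difference 6 were higher and 1 lower, with the lowest at -0.52. In series 34 taken by itself 1 was below, beside 23.5% of all genes. Snai1, a zinc finger repressor of E-cadherin, was at 8.81, 8.997 and 8.86 (series 34) and 8.94, 9.55 and 8.72 (series 32) in the late tumors, against 6.59, 7.17 and 7.04 (series 34) and 6.03, 7.76 and 7.29 (series 32) in the early tumors. Zeb1, another repressor, was at 9.07, 9.04 and 8.91 (series 34) and 8.95, 8.92 and 9.15 (series 32) in the late tumors, against 8.13, 8.21 and 8.25 (series 34) and 7.93, 8.33 and 8.32 (series 32) in the early tumors, a difference of 0.81. Late arrays were above early arrays for both. Twist1 was separate only in series 34, at 7.92, 7.92 and 7.83 in the late tumors and 7.01, 7.07 and 6.23 in the early tumors, and overlapped in series 32. Prrx1, below the filter, was at 8.59, 8.70 and 8.02 (series 34) and 9.77, 9.93 and 9.66 (series 32) in the late tumors, against 5.31, 6.11 and 5.91 (series 34) and 5.31, 7.57 and 8.24 (series 32) in the early tumors.

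Genes of fibrous matrix were higher in most cases. Of 26 tested fibroblast matrix genes (28 listed), 10 were above in both lines and none below, beside 9.68% and 9.67% of all genes. In single lines, 18 were above in series 32 (19.2% of all genes) and 13 in series 34 (23.9% of all genes). The median difference of the list was 1.85, with 1.37 in series 34 and 2.25 in series 32. Summed intensity of the list ranged from 41636 to 119847 in the late arrays and from 9754 to 47362 in the early arrays. These genes also mark host fibroblasts, and the part of such cells in the higher mesenchymal levels was not tested. Col1a1, the chief chain of type I collagen, was at 13.20, 12.81 and 12.19 (series 34) and 12.74, 13.05 and 13.16 (series 32) in the late tumors, against 11.23, 11.53 and 11.11 (series 34) and 8.43, 11.85 and 10.52 (series 32) in the early tumors. The primary tumor of series 32 was lowest for Col1a1, Col3a1 (8.60), the proteoglycan Bgn (7.74) and Fn1 alike. Pcolce, an enhancer of procollagen processing, was at 12.06, 12.08 and 11.03 (series 34) and 11.95, 12.07 and 12.25 (series 32) in the late tumors, against 9.28, 9.32 and 8.98 (series 34) and 8.85, 10.52 and 10.04 (series 32) in the early tumors. Dcn, the proteoglycan decorin of resident fibroblasts, had another order: it was at 10.55, 10.24 and 9.28 (series 34) and 13.15, 13.06 and 13.69 (series 32) in the late tumors, against 9.28, 10.20 and 11.39 (series 34) and 6.09, 11.70 and 11.76 (series 32) in the early tumors. In series 34 Dcn overlapped between late and early tumors, and only series 32 had all late arrays above. Fbln2, a fibulin (-1.39), and Fmod, a collagen-binding proteoglycan (-1.19), were on average lower in late tumors, separate in series 32 alone for Fbln2 and in series 34 alone for Fmod.

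Basement membrane genes and integrins differed in both directions. Of 16 tested basement membrane genes, 1 was above and 2 below in both lines, beside 9.68% and 9.67% of all genes. Agrn, agrin, was at 7.64, 7.78 and 7.63 (series 34) and 8.11, 7.85 and 7.12 (series 32) in the late tumors, against 10.17, 9.93 and 9.58 (series 34) and 9.74, 10.12 and 9.52 (series 32) in the early tumors, and was one of the genes below in both lines, the other being Lamb2 (-0.77). Lama5, a laminin chain of epithelial basement membranes, was at 6.80, 6.60 and 5.31 in late series 32 against 10.27, 10.48 and 8.45 in early series 32, while series 34 overlapped. Nid2, nidogen-2, was at 11.26, 10.96 and 10.74 in late series 34 against 7.82, 8.14 and 8.20 in early series 34 and overlapped in series 32. Of 8 tested integrins, Itgb1 (1.10) and Itgb7 (0.98) were above in both lines, and Itgb4, given above, was below.

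Of 20 tested proteases and inhibitors (25 listed), 7 were above and 3 below in both lines, beside 9.68% and 9.67% of all genes. The median difference was 0.84. Ctsl, a lysosomal protease, was at 11.81, 11.71 and 12.10 (series 34) and 12.31, 12.16 and 12.75 (series 32) in the late tumors, against 9.94, 10.09 and 10.08 (series 34) and 9.87, 9.52 and 9.98 (series 32) in the early tumors, with no overlap. Timp1 and Timp2, inhibitors of metalloproteinases, were higher by 2.09 and 1.57, and Timp3 differed by -2.03 with overlap in series 32. Mmp2, gelatinase A, was at 11.14, 9.97 and 8.29 (series 34) and 11.85, 11.78 and 12.19 (series 32) in the late tumors, against 8.47, 8.95 and 9.14 (series 34) and 7.71, 10.42 and 8.94 (series 32) in the early tumors. Transplant 5 of series 34 lay below the early tumors of its line. Mmp7, a metalloproteinase of gland epithelium, was at the floor in 5 of 6 late tumors and at 6.44, 7.72 and 6.11 (series 34) and 8.28, 7.24 and 8.54 (series 32) in the early tumors. Mmp10, a stromelysin, did not pass the filter and was at 7.45, 5.31 and 9.07 (series 34) and 12.15, 12.24 and 8.47 (series 32) in the late tumors, against the floor in all 6 early tumors. The urokinase receptor Plaur, also below the filter, was at 8.48, 8.74 and 9.79 (series 34) and 8.14, 8.43 and 7.29 (series 32) in the late tumors, against 5.47, 5.98 and 5.31 (series 34) and 5.31, 5.31 and 5.31 (series 32) in the early tumors, and its ligand Plau was higher by 1.12.

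Of 26 tested receptors and ligands (35 listed), 5 were above and 2 below in both lines, beside 9.68% and 9.67% of all genes. Bmp2, a bone morphogenetic protein, was at 6.66, 7.69 and 8.16 (series 34) and 9.03, 10.14 and 9.94 (series 32) in the late tumors, against 6.12, 6.04 and 5.73 (series 34) and 6.80, 7.11 and 6.76 (series 32) in the early tumors. Hbegf, an EGF receptor ligand, was at 7.83, 8.09 and 8.68 (series 34) and 8.52, 8.06 and 8.19 (series 32) in the late tumors, against 6.67, 6.74 and 6.37 (series 34) and 6.26, 6.20 and 7.23 (series 32) in the early tumors. Tgfb1 was higher by 1.48, Fgfr1 by 0.79 and Fgf2 by 0.65, all above in both lines. Erbb2 and Fgfr3, receptors of epithelial cells, were the genes below, with differences of -1.57 and -1.93. Fgf7, a ligand made by fibroblasts, did not pass the filter and was read at 7.54, 7.06 and 7.38 in late series 32 and at the floor in the other 9 arrays. Pdgfrb, the receptor of pericytes and fibroblasts, was at 8.98, 8.36 and 6.20 (series 34) and 9.60, 10.19 and 10.29 (series 32) in the late tumors, against 6.24, 6.65 and 7.30 (series 34) and 6.27, 9.19 and 8.12 (series 32) in the early tumors, and transplant 5 of series 34 lay below all 6 early arrays.

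Markers of other cells moved on single arrays. In transplant 5 of series 32, Cd3d was at 10.01, Cd3g at 10.44, Cd3e at 9.45, Cd8a at 8.13 and the T cell kinase Lck at 10.61, against at most 5.78, 6.79, 7.32, 5.70 and 7.83 on the other 11 arrays. None of 13 tested T and NK cell genes was above or below in both lines, beside 9.68% and 9.67% of all genes. Summed over the 18 list members on the array, tested or not, intensity ranged from 2376 to 14076 (median 3167) in the late arrays. In the early arrays it ranged from 1985 to 2552 (median 2220). In transplant 5 of series 34, the muscle actin Acta1 was at 10.70, troponin C Tnnc2 at 8.84, Myl1 at 9.13 and creatine kinase Ckm at 8.76. Tnnc2 was at the floor on the other 11 arrays. The muscle list summed to 1933 to 6408 in the late arrays, against 1867 to 2454 in the early arrays. The part of these cells in the late values of those 2 arrays was not tested. Without both arrays the 12 genes with the largest lower level had a median difference of -4.82, against -5.08 with them, and the 12 with the largest higher level one of 3.22, against 3.22.

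Of 4 tested mast cell genes (10 listed), none was above or below in both lines, beside 9.68% and 9.67% of all genes. Summed over the 9 list members on the array, tested or not, intensity ranged from 819 to 1195 (median 1083) in the late arrays. In the early arrays it ranged from 788 to 4219 (median 1090). Cma1, mast cell chymase, was at 8.47, 9.83 and 5.31 in the primary tumor and transplants 1 and 2 of series 32 and at the floor on the other 9 arrays. Its highest levels thus came from 2 early tumors of 1 line, and the carboxypeptidase Cpa3 was at 6.22, 6.80 and 5.60 in the late tumors of series 32, against 9.34, 9.84 and 5.73 in its early tumors. Macrophage genes were moderately higher: 6 of 19 tested were above and 1 below in both lines, beside 9.68% and 9.67% of all genes. The median difference was 0.66. Csf1r, the macrophage growth factor receptor, was at 8.86, 8.67 and 8.71 (series 34) and 9.26, 9.39 and 9.58 (series 32) in the late tumors, against 8.05, 8.08 and 8.31 (series 34) and 7.91, 8.71 and 8.87 (series 32) in the early tumors, and Lyz2, lysozyme, was higher by 1.14. Cd14, which macrophages and epithelium both express, was the gene below, with a difference of -1.80. Summed macrophage intensity overlapped, from 16255 to 41371 in the late arrays and from 15665 to 25899 in the early arrays. Of 11 tested endothelial genes 3 were above and none below in both lines, beside 9.68% and 9.67% of all genes, with a median of 0.47. Pecam1, the vascular adhesion molecule, was at 7.36, 6.63 and 7.16 (series 34) and 7.77, 8.20 and 8.85 (series 32) in the late tumors, against 7.53, 7.68 and 7.83 (series 34) and 6.96, 7.15 and 7.69 (series 32) in the early tumors. It was thus separate in both lines but in opposite directions. Granulocyte, adipocyte and red blood cell lists had 4, 5 and 3 tested genes. Of these 1, 0 and 0 were above in both lines and none below, beside 9.68% and 9.67% of all genes.

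Lists for cell division and metabolism held few genes that were separate in both lines, beside 9.68% above and 9.67% below among all genes. Of 15 tested mitosis genes 1 was above and none below in both lines, and of 22 DNA replication genes 1 was above and none below. The mitosis mean was 8.23, 9.03 and 9.37 in late series 34 against 8.86, 8.90 and 8.20 in early series 34, and 8.27, 8.41 and 7.10 in late series 32 against 8.06, 7.64 and 7.61 in early series 32. Transplant 5 of series 32 was the lowest, with Mki67 and Racgap1, genes of dividing cells, at the floor. Medians were 0.19 for mitosis, 0.17 for hypoxia and glycolysis (27 genes) and 0.15 for ribosomal proteins (17 genes), and each of the 3 changed sign to -0.01, -0.05 and -0.07 without scaling, so no direction is given for them. Without the dim array the medians were 0.44, 0.12 and 0.01. Of 22 oxidative phosphorylation genes 1 was above and 2 below in both lines, and 11 were below in series 34 taken by itself, beside 23.5% of all genes. Of 27 hypoxia and glycolysis genes none was above and 1 below in both lines, while 11 were above in series 34, beside 23.9% of all genes, with a list median of 0.47 in series 34 and -0.22 in series 32. None of 14 tested interferon response genes was above or below in both lines, and 4 were below without the dim array, when 1032 of all 8499 genes were. In series 34 taken by itself 8 of 14 were below, beside 23.5% of all genes.

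Late arrays resembled each other across lines. Over the tested genes, taken as deviations from each gene's mean over 65 arrays, late arrays correlated with each other at 0.62 to 0.80 in series 34 and at 0.63 to 0.87 in series 32. Late arrays of series 34 with late arrays of series 32 correlated at 0.30 to 0.59, and late with early arrays of the same line at -0.33 to -0.20 in series 34 and at -0.37 to 0.15 in series 32. Early arrays correlated at 0.42 to 0.78 in series 34 and at 0.02 to 0.46 in series 32. Every late array was thus nearer to each late array of the other line than to any early array of its own line. These correlations are across genes, rest on the arrays that chose the comparison and carry no test. Whether each late tumor descends from the early tumors of its line was not tested.

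The difference between the lines was tested as the late minus early difference in series 34 minus that in series 32, a measure the choice of lines did not use. Limma called 84 genes (0.988%) at an adjusted p below 0.05, 21 with the more positive difference in series 34 and 63 with the more positive one in series 32, and 1193 at an unadjusted p below 0.05. The count was 35 without rescaling and 1048 with array weights. It was 130 without the dim array and 143 without both arrays of transplant 5. Leaving out 1 array at a time, it was 141 without transplant 2 and 51 without transplant 4 of series 32, and 51, 31, 45 and 50 without the primary tumor, transplant 1, transplant 2 and transplant 4 of series 34. The markers and the 12 genes each way described above were chosen for separation in both lines, so nothing is read from this test for them. The test treats the 3 generations of a set as replicates, so its p-values measure only the spread between successive tumors of 1 line.

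Tnc, the matrix protein tenascin C, was at 8.25, 7.50 and 8.23 in late series 34 against 9.11, 8.59 and 6.95 in early series 34, and at 12.60, 12.39 and 12.87 in late series 32 against 7.19, 8.33 and 5.45 in early series 32. Only the late tumors of series 32 were high, and the difference between lines was -5.85 ± 0.93 (SE, limma adjusted p = 0.0134), a call lost without transplant 1 of series 34 (-5.66, limma adjusted p = 0.0512). Ccn3, a matricellular protein of the CCN family, was at 7.45, 7.46 and 7.55 in late series 34 against 8.81, 7.70 and 9.15 in early series 34, and at 13.08, 13.13 and 13.35 in late series 32 against 9.03, 9.54 and 8.12 in early series 32 (-5.36 ± 0.53, limma adjusted p = 0.00085). Igfbp5, an insulin-like growth factor binding protein, went the other way within series 34: it was at 8.11, 5.94 and 7.50 in its late tumors against 11.59, 11.73 and 12.23 in its early tumors, while series 32 had 12.67, 12.49 and 13.01 in late tumors and 10.41, 11.18 and 12.10 in early tumors. The difference was -6.16 ± 0.72 (limma adjusted p = 0.00237). Rasd1, a small GTPase induced by glucocorticoids, and Fndc1, a fibronectin-domain protein, differed by -5.47 and -5.33 (limma adjusted p = 0.00237 for each). Both were high in late series 32 alone among the 4 sets, at 9.99, 10.36 and 10.93 and at 11.20, 11.27 and 11.41.

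In the opposite direction, Lurap1l was at 7.78, 7.95 and 6.92 in late series 34 against 8.10, 7.57 and 7.29 in early series 34, and at 5.59, 5.46 and 5.31 in late series 32 against 9.25, 8.42 and 8.02 in early series 32. It differed by 3.01 ± 0.48 (limma adjusted p = 0.0134), and the call was likewise lost without transplant 1 of series 34 (2.96, limma adjusted p = 0.0512). Ppy, known as a pancreatic hormone gene, and Prl3b1, a placental prolactin gene, were at the floor in the 3 late tumors of series 32 and above it on the other 9 arrays, so their differences of 2.56 (limma adjusted p = 0.000482) and 2.61 (limma adjusted p = 0.0255) are lower bounds. Plaat3, a phospholipid-modifying enzyme, was at 9.52, 9.05 and 9.30 in late series 34 against 7.76, 7.74 and 7.41 in early series 34, and at 7.21, 7.65 and 6.74 in late series 32 against 7.73, 8.69 and 8.05 in early series 32 (limma adjusted p = 0.00889). Fosl1, an AP-1 transcription factor, was high only in late series 34, at 8.61, 8.43 and 9.43, and differed by 2.68 ± 0.55 (limma adjusted p = 0.0468). The calls of Fosl1 and Prl3b1 were lost when any of several single arrays was left out, the dim array among them for Fosl1 (2.29). Fosl1 was also not called with quantile normalization, without rescaling and without a filter (limma adjusted p = 0.0547, 0.0621 and 0.0769), nor Prl3b1 with the floor at the 20th percentile (limma adjusted p = 0.0888).

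Few list members were called between the lines. Timp1 was higher in the late tumors of both lines but more so in series 32 (difference -1.46, limma adjusted p = 0.00891). Col12a1, a fibril-associated collagen, was called at -4.38, the laminin chain gene Lama3 at -2.66 and the cytokine receptor chain Il2rg at -3.59 (limma adjusted p = 0.0159, 0.0488 and 0.0407). Kit, a receptor of luminal progenitors and mast cells, was at the floor in all late tumors of series 34 and at 8.23, 8.02 and 8.06 in those of series 32, against 7.49, 8.31 and 8.29 (series 34) and 6.23, 5.86 and 8.56 (series 32) in the early tumors. Its difference between lines was -3.94 (limma adjusted p = 0.0331).

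**Figure D4:**
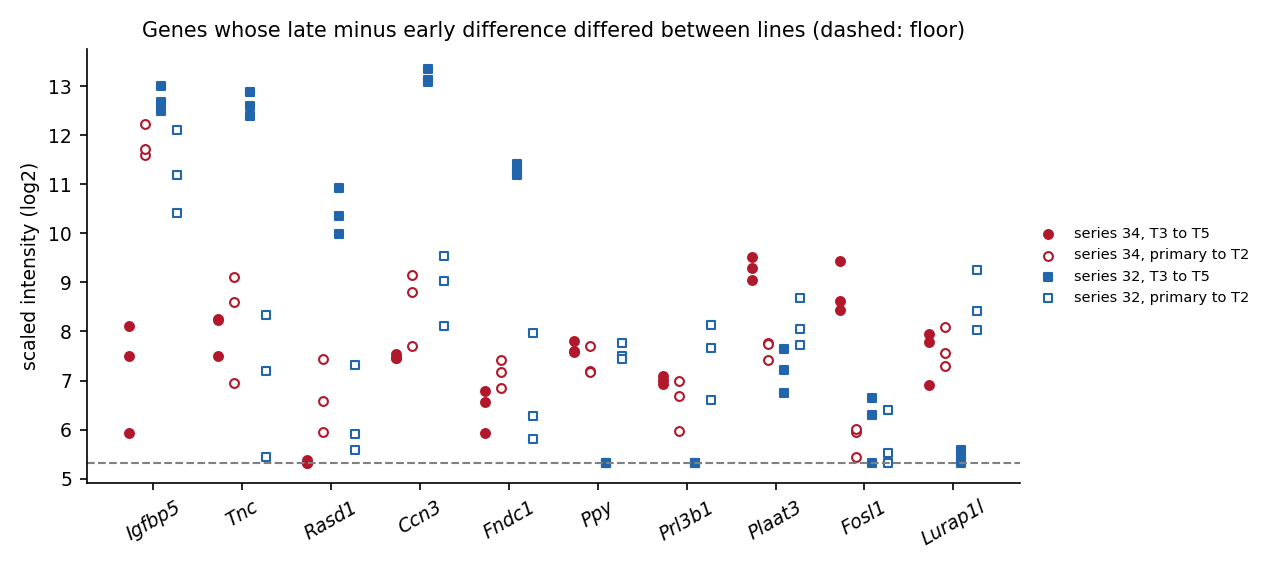
Scaled intensity (log2) of the 10 genes with the largest called differences between lines, 5 in each direction, 1 array per point, with late tumors filled and early tumors open, series 34 as circles and series 32 as squares. For Igfbp5, Tnc, Rasd1, Ccn3 and Fndc1 the late tumors of series 32 lie highest, for Ppy, Prl3b1 and Lurap1l they lie lowest, and for Fosl1 and Plaat3 the late tumors of series 34 lie highest.

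The other 9 lines differed less between late and early tumors, which is part of how series 34 and 32 were set apart, so the contrast between the 2 and the 9 lines was not tested. Epcam differed by -5.90 in series 34 and -4.21 in series 32, against -0.87 to 0.12 in the other 9. Krt18 differed by -5.61 and -5.09, against -1.38 to 0.55. Vim differed by 1.64 and 1.96, against -0.22 to 1.04, and was higher late in 7 of the 9 lines. For Epcam series 36 came nearest. From the primary tumor to transplant 5 its Epcam levels were 11.56, 11.57, 11.39, 11.51, 10.93 and 9.46, its Krt18 levels 10.20, 10.54, 9.95, 9.83, 9.61 and 7.90 and its Vim levels 11.47, 11.41, 12.08, 11.59, 11.60 and 12.81. Its transplant 5 had the lowest Epcam and Krt18 levels and the highest Vim level of that line. Series 42 had Epcam at 6.00, 5.31, 5.33, 5.31, 5.31 and 5.31 and Krt18 at the floor on all 6 arrays, from the primary tumor on.

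**Figure D5:**
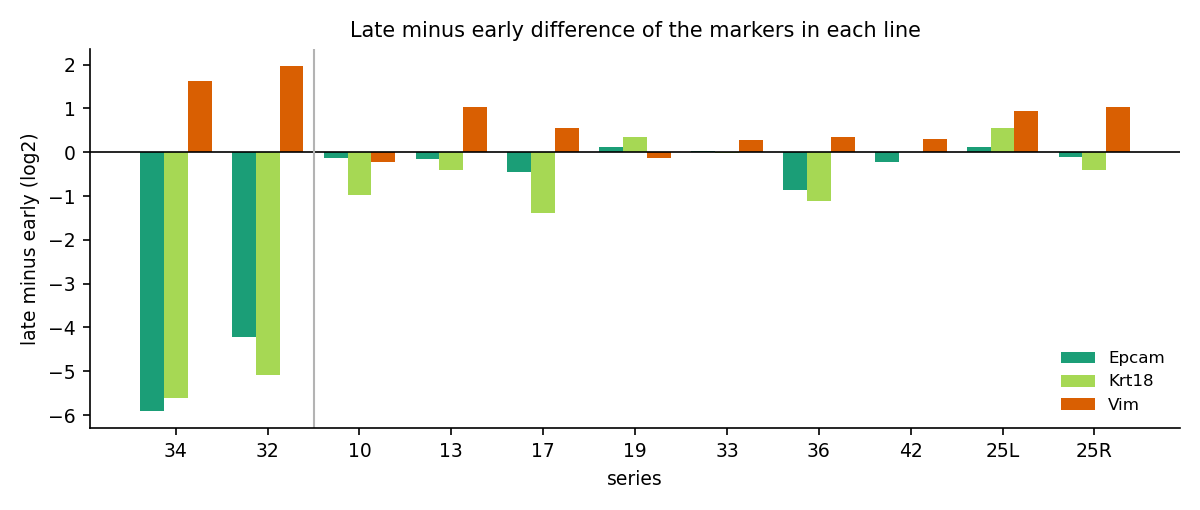
Late minus early difference (log2) of Epcam, Krt18 and Vim in series 34 and 32 (left of the line) and in the other 9 series. Bars start at 0, and the Epcam bars of series 34 and 32 reach -5.90 and -4.21.

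Over the other 9 lines limma with series as a block called 0 of 8499 genes (0%) between late and early tumors at an adjusted p below 0.05, with 844 genes at an unadjusted p below 0.05 (421 higher, 423 lower) and a smallest adjusted p of 0.0558. With a slope over transplant number in place of the late and early groups, limma called 421 genes, 228 higher and 193 lower with passage. Vim differed by 0.48 ± 0.14 (SE) in these lines and Epcam by -0.19 ± 0.09, given without a test because the lines were sorted by these markers. The fit treats the generations of a line as replicates, so its SE and p-values do not take the 9 lines as the units. Lines 25L and 25R were counted as separate lines, although their labels share a series number. Of the 12 genes higher in late series 34 and 32, 11 had a positive difference in the other lines, with a median of 0.34, and of the 12 lower genes 11 had a negative one, with a median of -0.28. These lines share no array with series 34 and 32, but the genes of each set are not independent of each other and none of them was called. The signs were not tested. The lists had medians there of -0.19 for luminal epithelium, -0.07 for junctions, 0.23 for mesenchymal genes and 0.40 for fibroblast matrix, beside 0.00 over all genes. Gp2 differed by -0.92 ± 0.34 (limma adjusted p = 0.35) and Plet1, known as a marker of epithelial progenitors in the mouse, by -0.89 ± 0.29 (limma adjusted p = 0.248). Plet1 was at 5.31, 5.31 and 5.31 (series 34) and 6.25, 7.73 and 5.31 (series 32) in the late tumors, against 10.72, 11.26 and 9.90 (series 34) and 11.50, 12.32 and 9.87 (series 32) in the early tumors.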

How the data were processed

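Total RNA of frozen tumor tissue was labelled as biotinylated cRNA and hybridised to 1-colour Affymetrix rat arrays, per the labels. The deposited values are linear intensities, 1 per probe set, from 1 to 12011 on 65 arrays. The sources used here do not state how the authors summarised or normalised the probes. Of 15923 probe sets 57 controls were left out, 12783 had 1 gene in the platform annotation, 312 several and 2771 none, and 12748 identifiers matched the RefSeq gene table for current symbols. Each array was scaled to a median of 162, values below 39.8 (the pooled 10th percentile) were set to that floor, log2 was taken of the deposited intensities so scaled, and each gene was read by its brightest probe set. Of 10411 genes 8499 had a mean log2 level of at least 6.35, the 25th percentile, and were tested.

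Fits used limma 3.58.1 in R 4.3.3 (lmFit, eBayes, Benjamini-Hochberg over all genes tested) and were tested on simulated data. The late minus early fits had series as a block, because all arrays of a series come from 1 tumor line. The line difference was fitted as late minus early in series 34 minus that in series 32. Named genes are Epcam, Krt18 and Vim, the 12 with the largest difference each way among genes without overlap in both lines, the 5 with the largest called line difference each way, and list members as examples. Members and lists were chosen with earlier results of these data known, and some list members shown were chosen after their values were seen. Arrays carry no count of molecules, so their number limits the precision. Alternatives covered block, scaling, floor, filter, probe sets, weights, a slope over passage, single lines and left-out arrays.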

Additional observations from a re-analysis of the deposited data

Results flagged for a closer look

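Single arrays stood apart from the other 5 of their group by Dixon's criterion (gap over range above 0.625) in 42 of 318 groups of 6 examined. Chance flags about 1 in 20 groups of independent values without ties. That rate does not hold for groups that pool 2 lines or have values tied at the floor of 5.31. There a small step above the floor is flagged, as for Mmp7 (5.33), Pgr (5.54) and Cd3d in the early group (5.78). Genes and lists share arrays, so these are not separate events.

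In the late group, the array of transplant 5 of series 32 was high for the T cell genes Cd3d (10.01), Cd3e (9.45), Cd3g (10.44), Cd8a (8.13) and Lck (10.61), for the T and NK cell list mean (9.15), for Vim (13.21), Pgr (5.54) and the ribosomal protein list mean (13.06), and low for Cd14 (7.60) and the basal myoepithelium list mean (7.11). Transplant 5 of series 34 was high for the muscle genes Acta1 (10.70), Ckm (8.76), Myl1 (9.13) and Tnnc2 (8.84), the muscle list mean (8.09) and the integrin list mean (9.05), and low for Pcolce (11.03). Transplant 3 of series 32 was high for Cldn4 (7.02), Cldn7 (6.65), Krt18 (7.32), Krt8 (8.22), S100a14 (6.76), Olah (7.58), Mmp7 (5.33) and the junction list mean (7.58), and transplant 4 of series 32 for Snai1 (9.55).

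In the early group, the primary tumor of series 32 was low for Bgn (7.74), Col3a1 (8.60) and Fn1 (8.03) and high for Ctnnb1 (11.90). Transplant 1 of series 32 stood apart for Cd44 (7.35), Ctsl (9.52), Glycam1 (6.38), Klf5 (6.98), Krt14 (9.38) and the endothelium list mean (7.85), and transplant 2 of series 32 for Cd3e (7.32). Transplant 1 of series 34 stood apart for Cd3d (5.78) and Plaur (5.98), and transplant 2 of series 34 for Acta1 (7.67) and Myl1 (6.63).

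The lines differed by test for 84 genes. Those described, as log2 differences of series 34 minus series 32, were Igfbp5 (-6.16), Tnc (-5.85), Rasd1 (-5.47), Ccn3 (-5.36), Fndc1 (-5.33), Col12a1 (-4.38), Kit (-3.94), Il2rg (-3.59), Lama3 (-2.66), Timp1 (-1.46), Lurap1l (3.01), Fosl1 (2.68), Plaat3 (2.61), Prl3b1 (2.61) and Ppy (2.56). No cause was tested.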

How the results depend on the processing

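Counts below are of 8499 genes, except of 6017 genes with the filter at the median, 10411 genes with no filter and 9953 probe sets with every probe set. The late minus early count in series 34 and 32 was 2567. Under the alternatives on all 12 arrays it ranged from 1973 (filter at the median) to 3252 (array weights). It was 2156 without the series as replicate block. It ranged from 2107 to 2782 with 1 array left out, and was 2254 for series 34 alone and 780 for series 32 alone. The 25 genes named as markers or largest differences, and the 10 named between lines, kept their direction in the alternatives run. Other list members were not followed one by one, and Foxa1 turned negative without rescaling. The line difference called 84 genes. Under the other alternatives of scaling, floor, filter and probe sets it gave 85 (quantile normalization) to 120 (no filter, of 10411 genes). It gave 35 without rescaling, where the median line difference of all genes was 0.21, against -0.03 in the main setting. It gave 1048 with array weights and 130 without the dim array. Without both arrays of transplant 5 (an alternative chosen after seeing the data) it gave 143, and 31 to 141 with 1 array left out. In the other 9 lines the count of 0 stayed 0 without the replicate block, with 263 genes then at an unadjusted p below 0.05. It was 2 with quantile normalization, 2 with the filter at the median, 421 with a slope over transplant number and 0 to 12 with 1 line left out (1 without series 19, 12 without 25L, 2 without 33 and 5 without 42). The causes were not tested. The median late minus early differences of the hypoxia, integrin, mitosis, muscle and ribosomal lists changed sign without rescaling. The floor limits the low genes: differences against it are bounds, and all 12 genes with the largest lower level had late arrays there. The lines are 2, and the generations of a line are not independent.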
